A study of Mus musculus with 10 samples.

Results

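Regulators of G protein signalling, the RGS proteins, switch off signals that run through heterotrimeric G proteins, and 10 of their genes are described here: Rgs2, Rgs3, Rgs4, Rgs5, Rgs8, Rgs10, Rgs12, Rgs16, Rgs17 and Rgs20. They were taken by gene symbol from the authors' deposited comparison and matched to the count table, where they are 10 of 49671 listed genes. They were chosen by their measured log2 fold changes as well as their family, since Rgs4 and Rgs17 were known to be among the largest decreases. The differences of these 10 genes between genotypes are therefore given as a description, and no test result for them is read as support.

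RNA came from cells of mouse embryos at embryonic day 10.5 on a mixed 129/Sv-C57BL/6 background, sorted for green fluorescence, with 1 embryo per library. Every embryo carried Wnt1Cre, a recombinase driven by the Wnt1 promoter in the dorsal neural tube that gives rise to the neural crest, together with the R26mTmG reporter that turns green after recombination. The 5 control embryos were littermates with the genotype Trp53+/+, and the 5 embryos called p53_activated had the genotype Trp53LSL-25,26/+, in which Wnt1Cre releases a stabilised p53 protein from 1 allele while the other allele stays normal. The marked cells can include neural tube beside neural crest, and only the marked lineage makes the altered protein. All 9 neural crest markers on the list used here were tested, none at 0 counts, with a summed level of 238 to 290 CPM (a gene's counts scaled to a library size that is the same for every embryo) in control and 223 to 285 CPM in p53_activated libraries. Their log2 fold changes ran from -0.94 to 0.33. At an edgeR adjusted p under 0.05, 1 of the 9 was lower and none higher, beside 2.74% and 4.49% of all tested genes. Cdkn1a, the p53 target that encodes p21, separated the genotypes as labelled, with 7.93 ± 1.59 CPM in control and 105 ± 11.9 CPM in p53_activated libraries (SD, n = 5 each). Trp53 itself was at 18.2 ± 5.12 and 29.1 ± 2.99 CPM, which checks the labels in part only, as both alleles are read from the same locus. Library totals ran from 12368058 to 28379562 counts, and 14528 genes had enough counts to be tested.

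When a hormone, transmitter or chemokine binds its G protein-coupled receptor, the alpha subunit of the G protein takes up GTP and parts from the beta-gamma pair, and both partners then act on effectors such as adenylyl cyclases and phospholipase C. An RGS protein speeds the hydrolysis of that GTP and so shortens the signal. The proteins are sorted by their domains. R4 members (here Rgs2, Rgs3, Rgs4, Rgs5, Rgs8 and Rgs16) are mostly small and act on Gi or Gq alpha subunits, R12 members (Rgs10 and Rgs12) act on Gi, and RZ members (Rgs17 and Rgs20) act on Gz and other Gi-class subunits.

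Of the R4 genes, Rgs4 had the clearest separation between genotypes. It encodes a small brake on Gi and Gq signalling that is best known from neurons. In control embryos 1 to 5 it stood at 10.2, 7.94, 8.97, 10.3 and 13.8 CPM, and in p53_activated embryos 1 to 5 at 2.75, 1.89, 4.19, 2.67 and 4.37 CPM. Every p53_activated embryo lay below every control embryo. The mean went from 10.2 ± 2.2 to 3.17 ± 1.07 CPM (SD over 5 embryos per genotype), which is 3.24-fold lower and corresponds to a log2 fold change of -1.70 ± 0.25 (SE). Those means rest on 846 counts over the control libraries and 284 over the p53_activated libraries. Among all tested genes 47 had a lower log2 fold change than Rgs4. In libraries made from a mixture of cells, fewer cells of a type that expresses a gene and less RNA of that gene per cell cannot be told apart, and this holds for every difference given here.

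Rgs3, an R4 member whose long forms carry domains beyond the RGS fold, had the highest CPM of the 10. Its control embryos had 96.1, 88.9, 76.4, 75.5 and 73.1 CPM, against 59.0, 56.3, 67.2, 68.6 and 65.2 CPM in the p53_activated embryos. The groups did not overlap, although the gap between the lowest control embryo and the highest p53_activated embryo was small. Control embryos averaged 82.0 ± 10 CPM and p53_activated embryos 63.2 ± 5.34 CPM (SD, n = 5 each), which is 1.3-fold lower, or -0.37 ± 0.10 (SE) as a log2 fold change.

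Rgs2 acts mainly on Gq. Control embryos had 40.7, 24.7, 21.3, 26.9 and 28.3 CPM and p53_activated embryos 20.3, 18.5, 21.4, 22.1 and 21.9 CPM. Control replicate 1 stood above the rest, and 2 of the 5 p53_activated embryos were below the lowest control embryo. The log2 fold change was -0.45 ± 0.16 (SE) and did not pass the threshold.

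The remaining R4 genes overlapped between genotypes. Rgs5, known as a marker of pericytes, the contractile cells of small vessels, had 4.32, 4.40, 6.64, 6.32 and 2.55 CPM in control embryos and 11.3, 5.83, 3.53, 3.42 and 6.17 CPM in p53_activated embryos. The value of 11.3 CPM in p53_activated replicate 1 was the highest of all 10 libraries, and 3.42 CPM in p53_activated replicate 4 was below 4 of the 5 control embryos. Its log2 fold change was 0.30 ± 0.34 (SE), and -0.04 without p53_activated replicate 1. Rgs16, an inducible brake on Gi and Gq, had 3.07, 2.91, 2.66, 4.21 and 3.93 CPM in control and 4.06, 4.67, 4.65, 4.28 and 2.98 CPM in p53_activated embryos, with 3 of the latter above the highest control. Its log2 fold change was 0.30 ± 0.24. Rgs8, known from Purkinje cells, ranged from 6.15 to 8.64 CPM in control and from 6.59 to 10.4 CPM in p53_activated embryos (log2 fold change 0.06 ± 0.19).

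In the RZ group, Rgs17 was the gene with the lower level in p53_activated embryos. It encodes a brake on Gz and Gi that is expressed mainly in the nervous system. Control embryos had 7.33, 7.47, 4.11, 4.02 and 3.28 CPM, and p53_activated embryos 2.48, 0.158, 1.70, 1.19 and 2.57 CPM. No embryo of one genotype entered the range of the other, but the spread within each was wide: control replicates 1 and 2 stood well above the other controls, and p53_activated replicate 2 held only 3 counts. The mean went from 5.24 ± 2.0 to 1.62 ± 0.996 CPM (SD over 5 embryos per genotype). This is 3.29-fold lower, or -1.72 ± 0.49 (SE) as a log2 fold change, on 431 control and 138 p53_activated counts. Its log2 fold change was -1.41 without p53_activated replicate 2 and -1.26 without both control replicates 1 and 2. Rgs20, the other RZ gene, was close to the limit of detection, with 2 to 8 counts in each control library and 4 to 14 in each p53_activated library. These correspond to 0.236 ± 0.106 and 0.492 ± 0.187 CPM, and 4 of the 5 p53_activated embryos were above the highest control. Rgs20 did not reach the minimum count for testing, so 9 of the 10 genes entered the fit.

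The R12 genes behaved differently from each other. Rgs10, a small protein made up of little more than the RGS fold, had 15.5, 10.2, 7.31, 10.4 and 10.9 CPM in control and 5.37, 11.1, 9.75, 4.35 and 8.26 CPM in p53_activated embryos. The groups overlapped, with p53_activated replicates 1 and 4 lowest, and the log2 fold change was -0.49 ± 0.26 (SE). Rgs12, a large scaffold with an additional motif that binds the GDP form of Gi alpha, was the steadiest of the genes. It ranged from 47.2 to 57.3 CPM in control and from 56.4 to 61.1 CPM in p53_activated embryos, a coefficient of variation of 7.13% and 3.33%. By contrast, the coefficient of variation was 38.1% and 61.6% for Rgs17 and 34.4% and 52.7% for Rgs5. The log2 fold change of Rgs12 was 0.14 ± 0.09, with 3 p53_activated embryos above the highest control.

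**Figure D1:**
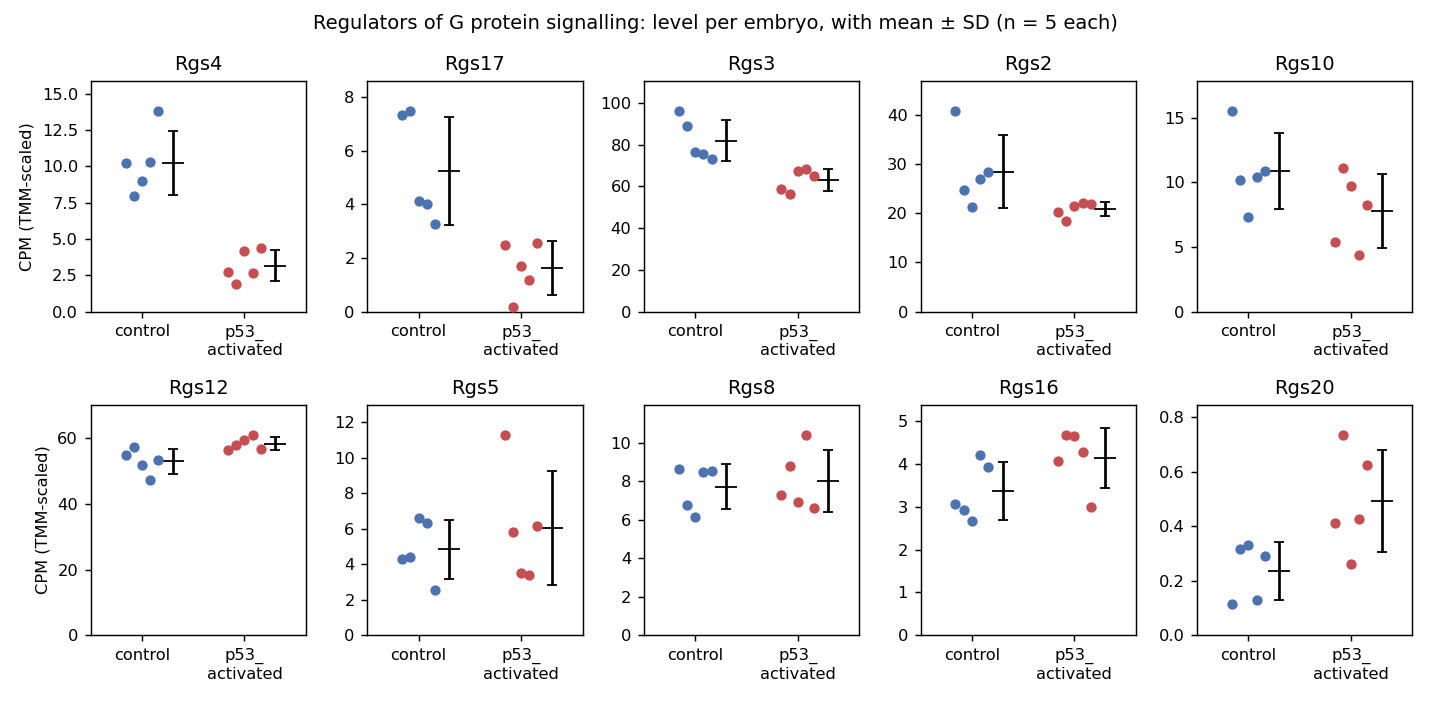
Level of each of the 10 genes in every embryo, in CPM on a linear axis from 0 that differs between panels; each point is 1 embryo, control in blue and p53_activated in red, and the bars give the mean ± SD (n = 5 each). Rgs4, Rgs17 and Rgs3 show no overlap between genotypes, with Rgs4 at 7.94 to 13.8 CPM in control and 1.89 to 4.37 CPM in p53_activated embryos, while the other panels overlap.

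In an edgeR quasi-likelihood fit of all 14528 genes, 3 of the 9 tested genes passed an adjusted p of 0.05, all lower: Rgs4, Rgs17 and Rgs3. Over all tested genes 7.23% passed in either direction, 2.74% as lower and 4.49% as higher. The same 3 genes were the ones with no overlap between genotypes, a separation in the lower direction seen in 3.52% of all tested genes, and in 8.07% counting either direction. Because the choice of the 10 genes used this comparison, nothing is read from those counts. Of the 9 genes, Rgs17 was the last inside the threshold (edgeR adjusted p = 0.0463) and Rgs2 the next outside it (adjusted p = 0.0985). The median log2 fold change of the 9 genes was -0.37, and that of all tested genes -0.01. How far the values depend on single libraries and on the fit is given as a description too. The log2 fold change of Rgs4 ran from -1.83 to -1.55 over 21 other settings. Rgs17 lost its call when control replicate 1 (log2 fold change -1.56), 2 (-1.55), 3 (-1.79) or 4 (-1.80) or p53_activated replicate 3 (-1.73), 4 (-1.62) or 5 (-1.94) was left out, with total count scaling (-1.74) and with embryo sex as a term (-1.70). Rgs3 lost it without control replicate 1 (-0.31) or 2 (-0.34) or p53_activated replicate 1 (-0.35), 2 (-0.33), 3 (-0.38) or 5 (-0.38), with embryo sex as a term (-0.37) and with limma-voom (-0.37).

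In the authors' deposited table the log2 fold change was -1.43 (SE 0.21) for Rgs4, -1.06 (SE 0.28) for Rgs17 and -0.36 (SE 0.11) for Rgs3. Those for Rgs4 and Rgs17, and that for Rgs10 (-0.40) in the authors' deposited table, were nearer 0 than the values computed here, while Rgs12 (0.14) and Rgs8 (0.06) had the same value in both. The authors' deposited table gave 0.41 (SE 0.29) for Rgs20 with no adjusted p. Without a filter on low counts, edgeR put Rgs20 at 1.05 ± 0.93 (SE).

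Dividing by exon length puts the genes on a scale on which their levels can be compared. In control embryos the highest were Rgs2 at 7.82 ± 2.03 and Rgs3 at 7.59 ± 0.926 CPM per kilobase of exon, followed by Rgs10 (6.35 ± 1.71) and Rgs12 (6.24 ± 0.445; SD, n = 5 for each). These 4 overlapped with their neighbours in the order, so their ranks cannot be separated. Rgs4 had rank 5, at 3.3 ± 0.71 CPM per kilobase, below every control embryo's value for Rgs12 and above every value for Rgs16 (1.44 ± 0.289). Rgs16, Rgs5 (1.07 ± 0.367), Rgs8 (0.8 ± 0.121) and Rgs17 (0.632 ± 0.241) overlapped step by step, and Rgs20 lay apart at 0.0557 ± 0.0251 CPM per kilobase. With the longest transcript in place of the union of exons, the first 4 changed places (Rgs3, Rgs10, Rgs12, Rgs2) and the ranks from Rgs4 down stayed the same.

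In p53_activated embryos the order per kilobase of exon began with Rgs12, Rgs3, Rgs2 and Rgs10. With the longest transcript it began with Rgs3 (13.5), Rgs12 (10.7), Rgs10 (8.82) and Rgs2 (6.9). By the mean, Rgs4 moved from rank 5 to rank 7, behind Rgs16 and Rgs5. Its p53_activated embryos (0.61 to 1.41 CPM per kilobase of exon) overlapped those of Rgs5 (0.753 to 2.48) and Rgs16 (1.28 to 2.0), so these ranks cannot be separated. The sum over the 10 genes was 35.3 ± 4.74 CPM per kilobase in control (30 to 43.0) and 28.3 ± 1.25 in p53_activated embryos (26.9 to 29.9). As a share of that sum, Rgs4 made up 9.43% in control and 3.6% in p53_activated embryos. Rgs17 made up 1.78% and 0.692%, and Rgs12 17.9% and 24.4%. The mixture of these brakes thus held proportionally less Rgs4 and Rgs17 transcript in p53_activated embryos, while most of the sum came from Rgs2, Rgs3, Rgs10 and Rgs12 in both.

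**Figure D2:**
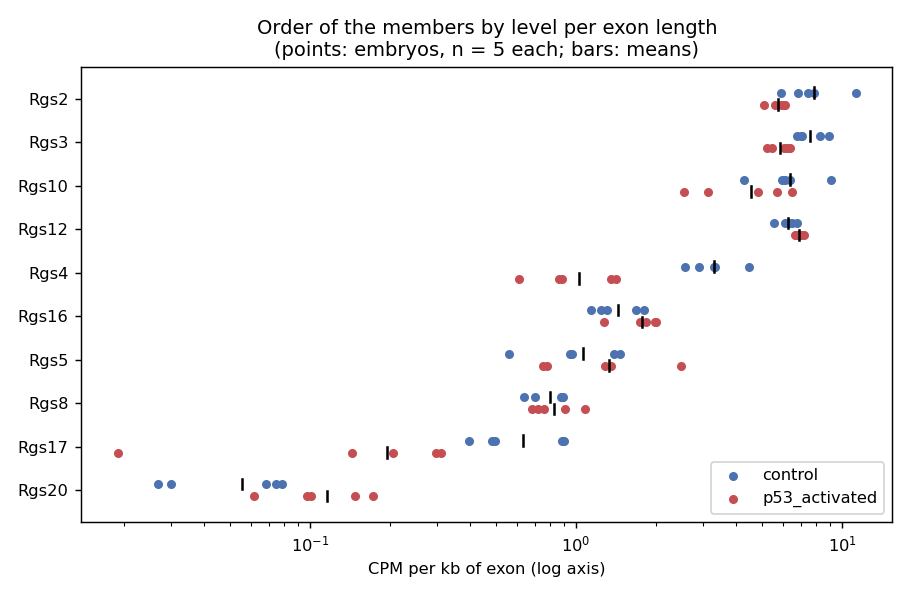
Level of each gene in CPM per kilobase of exon on a log axis, ordered by the control mean; points are embryos (control blue, p53_activated red, n = 5 each) and vertical bars are group means. Rgs2, Rgs3, Rgs10 and Rgs12 form an overlapping group between 6.24 and 7.82 in control, and the p53_activated points of Rgs4 and Rgs17 lie to the left of their control points.

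The genes differ at the start of their coding sequence in a way that matters for the proteins. Rgs4, Rgs5 and Rgs16 proteins are known to be short-lived because a cysteine follows the initiating methionine: once exposed and oxidised by the oxygenase Ado, it is arginylated by Ate1 and recognised by the ubiquitin ligases Ubr1 and Ubr2. The first 30 coding bases of these 3 genes and, for comparison, of Rgs2 and Rgs17 are shown 5′ to 3′. The second codon is in capitals. Each start is that of the gene's longest complete coding transcript in GENCODE M21. Rgs17 has 3 complete coding transcripts, and only the longest is shown.

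Rgs4: atgTGCaaaggacttgcaggtctgccggct
Rgs5: atgTGTaagggactggcagctctgccgcac
Rgs16: atgTGCcgcaccctagccaccttccccaac
Rgs2: atgCAAagtgccatgttcctggctgtccag
Rgs17: atgGGGttcttctccaaaaaattattgcta

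TGC and TGT are the cysteine codons, and 3 of the 10 genes have one at this place. Rgs4 and Rgs5 share 23 of the 30 bases, whereas Rgs5 and Rgs16 share 15 and Rgs4 and Rgs16 share 13. The log2 fold changes of these 3 genes were -1.70 ± 0.25 for Rgs4, 0.30 ± 0.34 for Rgs5 and 0.30 ± 0.24 for Rgs16 (SE), of which the last 2 did not pass the threshold, and the differences among the 3 were not tested. The encoded proteins are of similar length, 205 residues for Rgs4, 181 for Rgs5 and 201 for Rgs16. Rgs17 has 230, Rgs3 966 and Rgs12 1451. Each length is that of the longest complete form of the gene. RNA levels say nothing of how much protein each gene left in these cells.

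None of the 7 tested genes for RGS partners and for this degradation route passed the threshold. In the edgeR fit 3 of them had an unadjusted p under 0.05, a count with no share over all genes to set beside it. Ado was at 31.2 ± 2.42 CPM in control and 39.3 ± 5.22 CPM in p53_activated embryos (log2 fold change 0.33 ± 0.12, adjusted p = 0.0952), Ubr2 at 22.6 ± 2.32 and 27.5 ± 4.78 CPM (0.29 ± 0.14, adjusted p = 0.224). Ate1 had a log2 fold change of -0.12 ± 0.13 and Ubr1 of 0.22 ± 0.19. Rgs7bp, which anchors R7-type RGS proteins at the membrane, was at 9.52 ± 3.39 and 5.5 ± 1.18 CPM (-0.79 ± 0.24, adjusted p = 0.0593). It passed with DESeq2, with upper quartile scaling, with no filter on low counts, and when control replicate 4 or p53_activated replicate 3 was left out. Rgs9bp, the anchor of Rgs9, was at 0.759 ± 0.194 and 1.44 ± 0.522 CPM (0.91 ± 0.42, edgeR adjusted p = 0.207), a value on the other side of 0. Gnb5, the beta subunit that pairs with R7 proteins, had a log2 fold change of -0.31 ± 0.17 (adjusted p = 0.286).

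Several of the genes are neighbours in the genome, so position can be set beside the values (coordinates are GRCm38). Rgs4 (ENSMUSG00000038530, chr1:169741477-169747642, minus strand) lies 45.7 kb from Rgs5 (ENSMUSG00000026678, chr1:169655501-169695813, plus strand), with no other protein-coding gene of the annotation between them. Rgs8 (ENSMUSG00000042671, chr1:153653025-153700323) and Rgs16 (ENSMUSG00000026475, chr1:153740349-153745468) are 40.0 kb apart. Rgs2 (ENSMUSG00000026360) is at chr1:143999338-144004161 and Rgs20 (ENSMUSG00000002459) at chr1:4909576-5070285. Rgs17 (ENSMUSG00000019775) lies at chr10:5825663-5922400, Rgs3 (ENSMUSG00000059810) at chr4:62559847-62704001, Rgs12 (ENSMUSG00000029101) at chr5:34949445-35039644 and Rgs10 (ENSMUSG00000030844) at chr7:128373621-128418758. Exons of another gene cover 10.1% of the exon length of Rgs16, 5.94% of Rgs20, 5.5% of Rgs12 and 0.726% of Rgs8, so part of their counts is uncertain. The exons of Rgs4, Rgs17, Rgs3, Rgs2, Rgs5 and Rgs10 overlap no other gene.

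Rgs5, the closest neighbour of Rgs4, had a log2 fold change of 0.30 ± 0.34 where Rgs4 had -1.70 ± 0.25. Mtrf1l, a mitochondrial translation release factor gene 1.75 kb from Rgs17, was at 14.2 and 12.2 CPM in the edgeR fit, a log2 fold change of -0.22 ± 0.16 (adjusted p = 0.473). The decreases of Rgs4 and Rgs17 were thus not matched by a call in their nearest tested neighbours.

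The 250 bases before the start site of Rgs4 and Rgs17, which had the lowest log2 fold changes, are shown with those of Rgs5, the neighbour with the related coding start, as taken from RefSeq on GRCm38.p6 (5′ to 3′ on the gene's own strand). Such entries were found for 9 of the 10 genes, 13 start sites in all, and not for Rgs20. Capitals mark matches on either strand to 4 motifs: the E-box CANNTG bound by basic helix-loop-helix factors, the homeodomain core TAATTA, the TATA box TATAAA, and the decamer unit of the p53 consensus.

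Rgs4, chr1:169747643-169747892, minus strand: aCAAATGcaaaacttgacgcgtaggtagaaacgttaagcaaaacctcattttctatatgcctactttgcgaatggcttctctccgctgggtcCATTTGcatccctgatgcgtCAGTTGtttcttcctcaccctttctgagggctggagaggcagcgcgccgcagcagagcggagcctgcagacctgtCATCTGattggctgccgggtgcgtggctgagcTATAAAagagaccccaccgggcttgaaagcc
Rgs17, chr10:5922401-5922650, minus strand: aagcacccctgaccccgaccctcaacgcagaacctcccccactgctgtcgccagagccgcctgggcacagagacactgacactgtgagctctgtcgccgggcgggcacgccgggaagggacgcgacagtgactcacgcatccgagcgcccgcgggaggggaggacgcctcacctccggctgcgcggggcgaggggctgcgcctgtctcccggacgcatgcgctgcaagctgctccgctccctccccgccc
Rgs5, chr1:169655251-169655500, plus strand: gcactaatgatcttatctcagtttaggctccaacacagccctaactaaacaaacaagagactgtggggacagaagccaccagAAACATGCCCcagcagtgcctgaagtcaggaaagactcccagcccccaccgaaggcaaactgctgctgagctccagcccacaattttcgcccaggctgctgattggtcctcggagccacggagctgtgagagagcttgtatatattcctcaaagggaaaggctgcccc

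Rgs4 had 4 E-box matches, beginning 249, 158, 138 and 63 bases before the start, and a TATAAA 31 bases before the start, and these matches do not overlap. Rgs17 had no match to the 4 motifs, and 72.4% of its 250 bases were G or C, against 53.6% for Rgs4 and for Rgs5. Rgs5 had 1 match to the p53 decamer, 168 bases before the start. Among 32841 windows of this length in the RefSeq table, 66.2% held an E-box, 12.4% TATAAA, 7.13% the p53 decamer and 4.84% TAATTA. Of the 9 genes with an entry, 4 held an E-box, 2 TATAAA (Rgs4 and Rgs3), 1 the p53 decamer and 0 TAATTA. These counts are by gene, with a match in any of its windows (13 in all), while the shares are by window, so the units differ. The TATA box was added to the search after the sequences had been seen. A match is a run of letters in this window and not a measured binding site.

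Beside these 10, the count table lists 11 other genes with an Rgs symbol, of which Rgs19 and Rgs9 had enough counts to be tested. Neither was called, and 0 had an unadjusted p under 0.05 in the edgeR fit. Rgs19, an RZ member that acts on Gi and is widely expressed, was at 35.6 ± 2.49 CPM in control and 37.1 ± 5.56 CPM in p53_activated embryos (log2 fold change 0.06 ± 0.12, adjusted p = 0.812). At 16 CPM per kilobase in control it stood above each of the 10 genes. Beside Rgs17, the other RZ genes thus had a log2 fold change near 0 (Rgs19) or 20 against 46 counts in all (Rgs20), and the differences among these genes were not tested. Rgs9, an R7 member of photoreceptors and striatum, was at 0.791 ± 0.58 and 1.08 ± 0.563 CPM (0.45 ± 0.58, adjusted p = 0.704). The other R7 genes were sparse, with 33 counts in control and 39 in p53_activated libraries for Rgs6, 16 and 31 for Rgs7, and 24 and 73 for Rgs11. Rgs22 had 2 counts in control and 32 in p53_activated libraries, of which p53_activated replicate 4 held 20. Rgs13, Rgs14 and Rgs18, genes of immune cells, brain and platelets, had 25 counts or fewer in either group, and Rgs1 and Rgs21 had 0 in every library.

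The parts of the pathway on which RGS proteins act were read from lists of 123 other genes, of which 84 were tested. Of these, 3 were higher and 3 lower at an edgeR adjusted p under 0.05, beside 7.23% of all tested genes. The share called was thus near the background. At an unadjusted p under 0.05 there were 23. The share of all tested genes at that unadjusted p was not computed, so no excess is read from such counts here. The list's median log2 fold change was -0.08, that of all tested genes -0.01.

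Among 11 tested alpha subunits, the direct substrates of RGS proteins, Gnaz was the 1 that fell and none rose, beside 2.74% of all tested genes called lower and 4.49% called higher. Gnaz encodes Gz alpha, the preferred partner of RZ proteins such as Rgs17. It had 22.3, 18.3, 16.8, 15.8 and 17.2 CPM in control and 11.7, 13.1, 10.3, 13.8 and 14.2 CPM in p53_activated embryos, without overlap, as in 3.52% of all tested genes in this direction. The log2 fold change was -0.52 ± 0.15 (SE; edgeR adjusted p = 0.0416). Without p53_activated replicate 4 the call of Gnaz was kept (adjusted p = 0.0449), but leaving out any other library ended it (adjusted p = 0.0535 to 0.106). Gnao1, the Go subunit of neurons, was at 13.2 ± 4.26 and 9.53 ± 2.83 CPM (-0.46 ± 0.24, adjusted p = 0.287). The abundant Gi subunits had log2 fold changes of 0.10 ± 0.12 (Gnai2, 145 CPM in control) and -0.04 ± 0.11 (Gnai3), and the Gq-class subunits of 0.16 ± 0.13 (Gnaq) and 0.03 ± 0.12 (Gna11). Gnas, which encodes Gs alpha, shares 22% of its exon length with other genes, so its 0.50 ± 0.29 is uncertain.

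Among 12 tested beta and gamma subunits, Gng3 and Gng2 fell and none rose, beside the same 2.74% and 4.49% of all tested genes. Of the 12 log2 fold changes 10 were below 0, as were 7463 of all 14528 tested genes, and the median was -0.28. Gng3, a gamma subunit of neurons, had 26.5, 19.8, 20.1, 22.7 and 22 CPM in control and 12.5, 11.4, 11.3, 13.6 and 12.6 CPM in p53_activated embryos. Its log2 fold change was -0.86 ± 0.13 (SE; edgeR adjusted p = 0.000714), and Bscl2 covers 24.2% of its exon length. Gng2 went from 126 ± 14.0 to 93.4 ± 5.77 CPM (-0.43 ± 0.09, adjusted p = 0.00944), with 20.4% of its exon length shared. Gng4 was low and variable, at 2.19 ± 1.44 and 0.766 ± 0.628 CPM (-1.55 ± 0.72, adjusted p = 0.221). Both Gng3 and Gng2 kept their call in 21 of 21 other settings.

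No receptor passed. Of 42 listed receptors, which couple to Gi or Gq except for the atypical Ackr3, 22 were tested. Of these 0 were called, beside 7.23% of all tested genes called. In the edgeR fit 5 had an unadjusted p under 0.05, a count with no share over all genes to set beside it. Of the 22 log2 fold changes 19 were below 0, against 7463 of all 14528, and the median was -0.37. The 5 were Ackr3, a scavenging receptor for the chemokine Cxcl12 that works through arrestins (20.1 ± 4.6 and 14.1 ± 2.14 CPM, -0.52 ± 0.17, adjusted p = 0.0721), the lysophosphatidic acid receptor gene Lpar1 (-0.49 ± 0.17, adjusted p = 0.0962), the cannabinoid receptor gene Cnr1 (-0.85 ± 0.36), the GABA-B receptor gene Gabbr1 (-0.47 ± 0.20) and the thrombin receptor gene F2r (-0.27 ± 0.13). Ackr3 and Lpar1 were called lower by DESeq2 and, in the edgeR fit, without control replicate 3. Of the 42 receptors 23 averaged under 1 CPM, and Chrm2, a muscarinic receptor gene, had no count.

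Of 16 tested effectors 2 rose and none fell, beside 4.49% and 2.74% of all tested genes. Of the 16 log2 fold changes 12 were above 0 and 4 below, and the median was 0.36. Adcy2, an adenylyl cyclase that beta-gamma subunits stimulate, had 4.38, 1.34, 2.66, 1.98 and 3.42 CPM in control and 5.64, 7.19, 6.81, 6.91 and 3.82 CPM in p53_activated embryos. All but p53_activated replicate 5 lay above the highest control (log2 fold change 1.14 ± 0.30, SE; edgeR adjusted p = 0.0342). Its call was lost without control replicate 2, 3 or 4 or p53_activated replicate 2, 3 or 4 (adjusted p up to 0.0808). Adcy6, an adenylyl cyclase that Gi inhibits, had 9.05 to 11.3 CPM in control and 11.7, 16, 12.6, 30.9 and 22.8 CPM in p53_activated embryos (0.86 ± 0.23, adjusted p = 0.0385). Without p53_activated replicate 4, the highest embryo, it was at 0.60 (adjusted p = 0.0797), and leaving out any other library except p53_activated replicate 1 or 3 also ended its call (adjusted p up to 0.0972). Plcb1, the phospholipase C beta of neurons, was at 2.48 ± 1.14 and 1.39 ± 0.464 CPM (-0.83 ± 0.39, adjusted p = 0.224).

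Of 14 other brakes on these receptors and proteins with RGS-like domains, 1 rose and none fell, beside 4.49% and 2.74% of all tested genes. This was Axin2, whose RGS domain serves to bind APC in the Wnt pathway and not to act on G proteins. It had 7.62, 9.52, 9.18, 9.19 and 9.25 CPM in control and 13.7, 12.5, 13.7, 25.7 and 20.0 CPM in p53_activated embryos. The groups did not overlap, as in 8.07% of all tested genes counting either direction. The log2 fold change of Axin2 was 0.94 ± 0.20 (SE, edgeR adjusted p = 0.00888). Its relative Axin1 was at 0.26 ± 0.09 (adjusted p = 0.101). The receptor kinase gene Grk2 (-0.03 ± 0.09, adjusted p = 0.903) and the arrestin gene Arrb2 (-0.06 ± 0.08, adjusted p = 0.716), which silence receptors by phosphorylation and capping, did not pass.

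**Figure D3:**
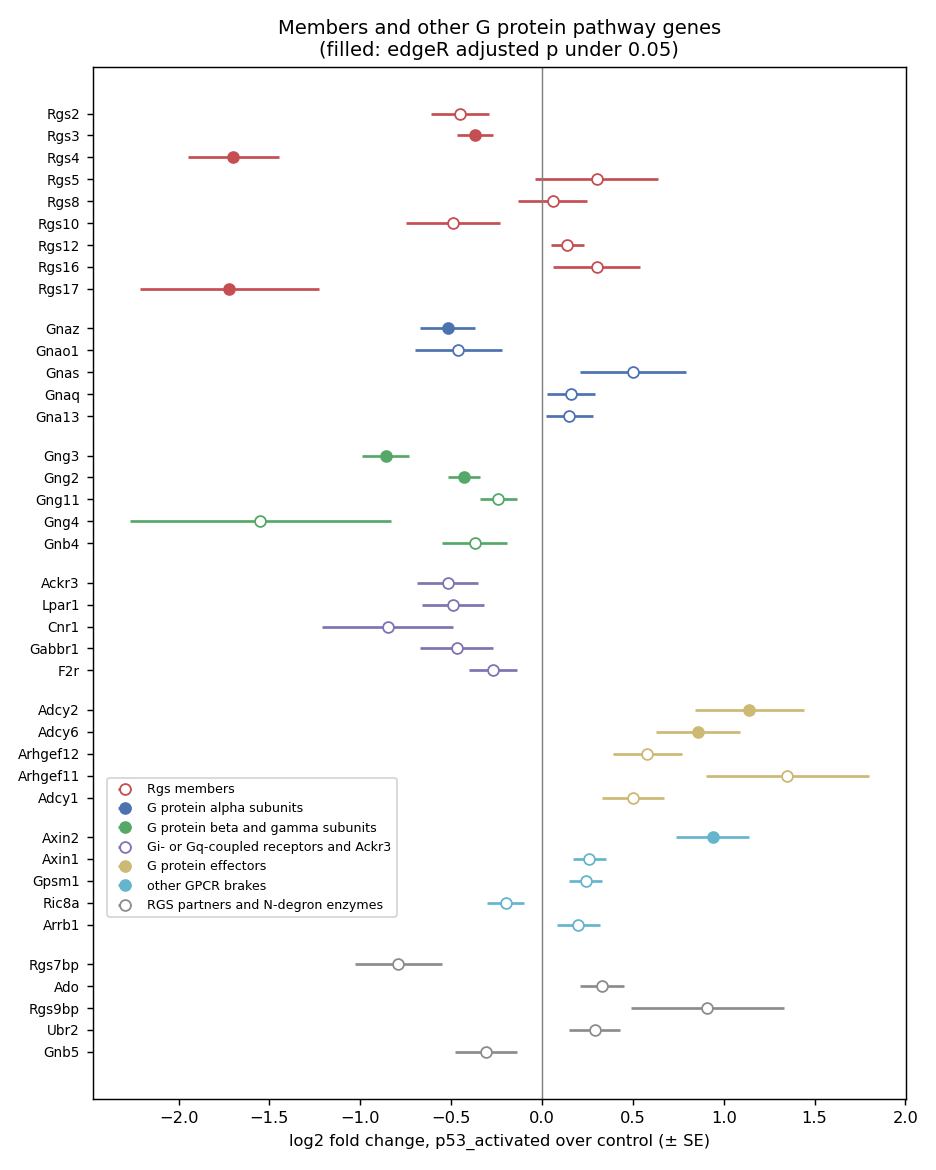
Log2 fold change of p53_activated over control with its SE for the 9 tested Rgs genes and, in each pathway list, the 5 genes with the smallest p; filled symbols passed an edgeR adjusted p of 0.05. Rgs4 and Rgs17 sit near -1.7, beyond every filled pathway gene on the left, of which Gng3 at -0.86 is the farthest from 0.

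Neuron markers, as well as Rgs4, Rgs17 and Rgs3, were lower in p53_activated embryos. Of 24 sensory and autonomic neuron markers 23 were tested, and 13 fell and none rose, beside 2.74% of all tested genes called lower. The median log2 fold change of the list was -0.85. Their summed level was 1150 to 1420 CPM in control and 593 to 893 CPM in p53_activated embryos, with Phox2a and Syt1 averaging under 1 CPM. Phox2a had 0 counts in p53_activated replicate 3, and no other marker was at 0 in any library. Examples were Stmn3, a microtubule regulator (-0.97 ± 0.11), and Elavl4, a neuronal RNA-binding protein (-0.88 ± 0.13, adjusted p = 0.000639, edgeR). Dbh, the noradrenaline enzyme, was the 1 tested marker of 23 with a lower log2 fold change than Rgs4 and Rgs17 (-3.28 ± 0.40), while 18 of the 23 were lower than Rgs3.

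Embryo by embryo, the mean log2 level of the neuron markers, centred on all libraries, was 0.36 to 0.47 in the control embryos. It was -0.41, -0.70, -0.58, -0.10 and -0.31 in p53_activated embryos 1 to 5, where centred log2 Rgs4 was -0.98, -1.5, -0.39, -1.02 and -0.33. The embryo with the lowest neuron markers, p53_activated replicate 2, also had the lowest Rgs4 and, at -3.27, the lowest Rgs17. In p53_activated replicate 4, whose neuron markers were nearest to control, Rgs4 was at 2.67 CPM, close to the 2.75 CPM of p53_activated replicate 1. With each genotype's mean subtracted, Pearson's r with the neuron markers over 10 libraries was 0.22 for Rgs4, 0.5 for Rgs17 and 0.4 for Rgs3. For the other tested genes it was 0.35 (Rgs8), 0.33 (Rgs2), 0.08 (Rgs12), -0.13 (Rgs5), -0.21 (Rgs16) and -0.63 (Rgs10). The control embryos hardly differed in neuron markers, so these values rest mainly on the 5 p53_activated embryos. For Rgs17, p53_activated replicate 2 lay farthest from its group and held only 3 counts. The part of the neuron markers in the lower Rgs4, Rgs17, Rgs3, Gng3 and Gnaz levels was not tested.

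**Figure D4:**
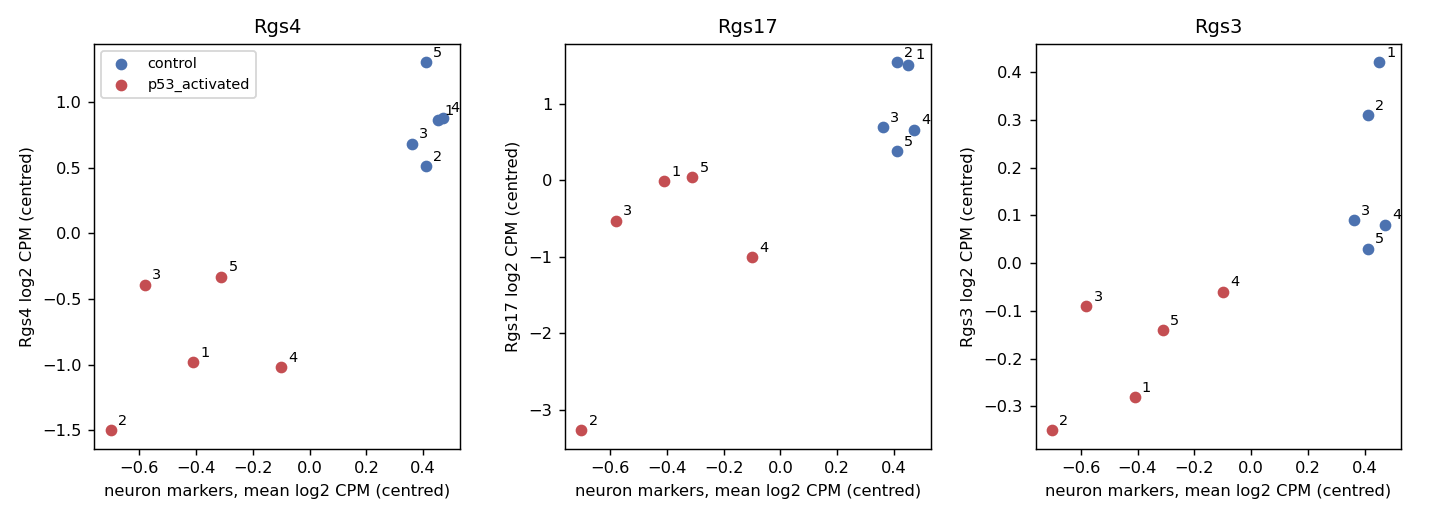
Centred log2 CPM of Rgs4, Rgs17 and Rgs3 (vertical axes) against the centred mean log2 CPM of the tested neuron markers (horizontal axis), with 1 numbered point per embryo (control blue, p53_activated red). Control embryos cluster at 0.36 to 0.47 on the horizontal axis. Of the p53_activated embryos, replicate 2 is lowest in neuron markers and in each gene. Replicate 4, at -0.10, has less Rgs4 than replicates 3 and 5, whose neuron markers are lower.

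Markers of other cell types that can express RGS genes were read in the same way. The share to set beside each list is 4.49% of all tested genes called higher and 2.74% called lower. For Rgs5 the relevant list is mural cells, of which 8 of 11 markers were tested: Notch3, a receptor of smooth muscle cells, rose (log2 fold change 1.69 ± 0.33, edgeR adjusted p = 0.0133), and Acta2, smooth muscle actin, fell (-0.64 ± 0.15, adjusted p = 0.0177). Of the 8 log2 fold changes 6 were below 0, with a median of -0.30. Kcnj8, a potassium channel gene of pericytes that did not reach the minimum count, had 130 counts in control and 29 in p53_activated libraries. By replicate these were 59, 29, 1, 20 and 21 in control and 4, 8, 9, 6 and 2 in p53_activated libraries, so the groups overlapped. The summed mural level was 157 to 231 CPM in control and 169 to 279 CPM in p53_activated embryos, and p53_activated replicate 1, with the highest Rgs5, had the lowest of the p53_activated sums. Notch3 made up 124 of the 279 CPM in p53_activated replicate 4. Abcc9, Tagln and Myh11 averaged under 1 CPM. For Rgs10, which is known from macrophages and platelets, 0 of 7 tested macrophage markers were called and 0 had an unadjusted p under 0.05 in the edgeR fit. Their sum was 11.3 to 76.3 CPM in control and 27.2 to 55.3 CPM in p53_activated embryos. Both the highest macrophage sum and the highest Rgs10 were in control replicate 1, and both the lowest control macrophage sum and the lowest control Rgs10 in control replicate 3. In p53_activated embryos, replicate 4 had the highest macrophage sum (55.3 CPM) and the lowest Rgs10 of all 10 libraries (4.35 CPM). Of 9 erythroid and platelet genes 0 were called, with 1 (Pf4) at an unadjusted p under 0.05, and of 6 tested endothelial genes 0 were called and 0 had an unadjusted p under 0.05. The part of these cells in the Rgs levels was not tested.

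Control replicates 1 and 2 differed from the other libraries in their globin RNA and in marker sums of other tissues. The ratio of Hbb-y to Hbb-bh1, both made in embryonic red cells, was 4.97 and 2.69 against 1.59 to 2.08 in the other 8. Their summed neural tube markers were the lowest, at 113 and 110 CPM against 156 to 222 CPM. Their summed markers of arch mesenchyme were the highest, at 536 and 630 CPM against 411 to 491 CPM. The same embryos had the highest Rgs17 and Rgs3 of all, and control replicate 1 had the highest Rgs2 and Rgs10. Without both (chosen once the data had been seen) the log2 fold change was -1.80 for Rgs4, -1.26 for Rgs17 and -0.25 for Rgs3, and only Rgs4 of the 10 genes kept its call. Rgs4 itself was not raised in these embryos, with 10.2 and 7.94 CPM against 8.97 to 13.8 CPM in the other controls. The part of these differences between libraries in the Rgs levels was not tested.

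Within genotypes the genes did not vary as a unit. Over 36 pairs of the 9 tested genes, Pearson's r of group-centred log2 CPM across the 10 libraries had a median of 0.06 and ran from -0.57 to 0.63, with 5 pairs over 0.5. The highest was 0.63, for Rgs2 with Rgs3 and for Rgs3 with Rgs12. Rgs4 and Rgs17 had 0.51 over all libraries but -0.66 within control and 0.79 within p53_activated embryos, so their embryos ranked differently in control. These values share library and depth, and each within-group value rests on 5 embryos.

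The genes whose group-centred levels were most like Rgs4, among 11188 ranked, were Tmem80 (r = 0.93), Map7d2 (0.93), Ssx2ip (0.91), Rprm (0.91) and Rab21 (0.90), over 10 libraries. For Rgs17 they were Zfp846 (0.95), Mecom (0.95), Lrrc8c (0.92), Lgals7 (0.92) and St8sia4 (0.92). For Rgs5 they were Topors (0.91), Srsf10 (0.90), Erlec1 (0.89), Tmem86a (0.88) and Tmpo (0.87), and for Rgs16 Vegfb (0.96), Ensa (0.93), Fuca2 (0.93), Pex7 (0.93) and Spns1 (0.92). None of these 20 genes passed the threshold between genotypes, with log2 fold changes of -0.97 (Lgals7) to 0.40 (Rprm). The best of so many genes over so few libraries reach high values in any case, and the gene at rank 10 for Rgs4 still had r = 0.88. For the other 5 tested genes the gene at rank 5 had r of 0.87 (Rgs12) to 0.95 (Rgs10).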

How the data were processed

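RNA-seq of sorted cells from 10 single embryos was analysed. Raw counts for each Ensembl gene were deposited. The authors' comparison, per the file headers, holds a mean normalized count (a signal over all libraries), log2 fold changes and their errors, a test statistic (a score) and p-values with and without adjustment. The build GRCm38 and the tools DESeq2 1.14.1, HTSeq 0.6.1, HISAT2 2.0.4 and SAMtools 1.3.1 appear in the submitters' processing notes. Which annotation release and strand setting were used is not given in the sources used here. Counts of overlapping genes are therefore uncertain.

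Counts were filtered with filterByExpr (minimum count 10, minimum total 15), scaled by TMM and tested with the edgeR 4.0.16 quasi-likelihood F-test in R 4.3.3, with robust dispersions, all 10 libraries and no covariate. Benjamini-Hochberg adjustment ran over the 14528 genes tested, and calls use an adjusted p of 0.05. Biological variation in common to all genes was 25.5% (coefficient of variation). SE values are the log2 fold change over the root of F. CPM are TMM-scaled, and log2 CPM use a prior count of 2. The script was tested on simulated data. Library totals of 12368058 to 28379562 counts set the precision, and all pairs of libraries differed by more than counting noise (chi-square per degree of freedom 14.9 to 71.6). By Xist and Y-linked transcripts 2 control and 3 p53_activated embryos were female.

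The genes and lists were chosen with earlier results of these data known. The rule names the 10 genes, any other Rgs gene, up to 5 genes per list with the smallest p, any needed to say that they did not pass, and the 5 genes most like Rgs4, Rgs17, Rgs5 and Rgs16 by group-centred Pearson's r. Cdkn1a and Trp53 check the labels. Plcb1, Gnai2, Gnai3, Gna11, Grk2 and Arrb2 are named to say that they did not pass. Positions, exon lengths and coding starts are from GENCODE M21, which held 49412 (99.5%) of the identifiers, and promoters from RefSeq on GRCm38.p6. Alternatives were other scaling, filters and dispersions, limma-voom (limma 3.58.1), DESeq2 1.42.0, embryo sex or replicate number as a term, leaving out each library, and, added after the data were seen, leaving out control replicates 1 and 2 together. Some genes that the rule would name are not reported here; they still count in the tallies.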

Additional observations from a re-analysis of the deposited data

Results flagged for a closer look

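In 42 genes, 84 groups of 5 embryos were checked for an embryo far from the rest (Dixon's ratio above 0.71), and 5 had one, where chance alone gives about 1 in 20 groups. Control replicate 1 had the highest Rgs9 of its group, at 1.82 CPM. The highest Rgs7bp among p53_activated embryos was 7.59 CPM, in replicate 3. Gnb4 was lowest in p53_activated replicate 2, at 7.19 CPM. For Axin2, control replicate 1 stood below the other controls at 7.62 CPM. Arrb1 was highest in control replicate 3, at 51.1 CPM. None of the 10 genes described had such an embryo.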

How the results depend on the processing

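Rgs4 kept its call in 21 of 21 other settings (adjusted p = 4.35e-09 to 0.00226). Rgs3 lost it in 10 (adjusted p there 0.0508 to 0.164, over all settings 0.018 to 0.164) and Rgs17 in 11 (0.0506 to 0.222, over all settings 0.00466 to 0.222). Beside left-out libraries these were embryo sex as a term (0.0656 for Rgs3, 0.0731 for Rgs17), limma-voom for Rgs3 (0.0508) and total count scaling for Rgs17 (0.0506), and the replicate block (0.0927 and 0.0982). As the genes were chosen on this comparison, a kept call is no support for it. Of the 9 tested Rgs genes 3 were called, 1 with the replicate block, 1 with embryo sex as a term, 1 to 3 with 1 library left out, and 1 without both control replicates 1 and 2. The replicate numbers did not pair the embryos: correlations of same-numbered embryos were -0.0529 to 0.113, and only number 5 matched its own number best. The block left 804 calls over all genes. Rgs5 ranged from -0.04 (without p53_activated replicate 1) to 0.46 (p53_activated replicate 4), and Rgs8 from -0.05 (p53_activated replicate 4 left out) through -0.0 (control replicate 3) to 0.13 (p53_activated replicate 5). Over all genes 1050 were called, 1622 by DESeq2, 636 to 1025 with 1 library left out and 656 without both control replicates 1 and 2. Of the calls 62.1% were higher, and 51.7% with upper quartile scaling. Of the pathway genes 6 were called, 11 by DESeq2 and 3 to 6 with 1 library left out. Gnaz lost its call in 15 of 21 settings, Adcy6 in 12 and Adcy2 in 7, while Gng2, Gng3 and Axin2 kept theirs in 21. The cause of these changes was not tested. Leaving out a library also lowers the number of samples, and the 2 cannot be told apart here. Depth limits Rgs20, with 20 and 46 counts in all, and the sparse R7 genes.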
